A study of Arabidopsis thaliana with 6 samples.

Results

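The mitochondrial genes cox1, cox2 and cox3 of Arabidopsis thaliana (Col-0) were followed in RNA and in ribosome footprints of wild type (WT) and of a heterozygous rps10 mutant. They were taken by name. Of the 24 mitochondrial genes with a level, 2 were members (cox1 and cox3), and of 56 gene and exon rows with a reading frame, 4 were members (cox1, cox3 and the exon rows cox2_1 and cox2_2). A level of cox2 was not analysed here. The nuclear gene RPS10 (AT3G22300) encodes a protein of the small subunit of mitochondrial ribosomes. Its level, like that of any nuclear gene, was not analysed here. The mutant plants, genotype Rps10 +/-, were of the phenotypes P2 and P3, which are therefore not independent mutants. All leaves were the youngest ones of plants aged 9 to 10 weeks, grown in 8 h of light, and all mitochondria were thawed with chloramphenicol at 100 µg/ml, which stops translation on mitochondrial ribosomes. Of the 6 libraries, each of the 3 kinds of plant had 1 of footprints and 1 of RNA, both from pools of 15 preparations of mitochondria. About 30 g of wild-type leaves and about 15 g of mutant leaves went into an isolation, and only mutant seedlings were selected on kanamycin (50 mg per litre), so these cannot be told apart from the genotype. With 1 library per group there was no replicate check and no test.

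Cytochrome c oxidase is complex IV, the last enzyme of the respiratory chain, which passes electrons from cytochrome c to oxygen and pumps protons across the inner mitochondrial membrane. Its catalytic core is made of proteins encoded in the mitochondrial genome. Cox1 carries the hemes and the copper atom where oxygen is reduced, Cox2 carries the copper centre that takes electrons from cytochrome c, and Cox3 is a membrane subunit without a redox centre. The other subunits are encoded in the nucleus and imported. In Arabidopsis cox2 is interrupted by an intron that is removed from its transcript, which is why its frame data come in exon rows. A ribosome profiling library holds the pieces of RNA that ribosomes shield from nuclease, and an RNA library from the same mitochondria gives the level of the transcript.

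The libraries differed before any gene was considered. Reads on mitochondrial coding sequences (CDS) numbered 416254 in the wild-type footprint library, 80146 in P2 and 48653 in P3, which were 5.37% of the filtered reads (5.36 to 5.39, 95% Wilson), 0.530% (0.526 to 0.533) and 0.407% (0.403 to 0.411). Such intervals cover counting error only. RNA libraries held 1971931 to 3126478 such reads, or 37.3% to 45.8%. Filtered footprint reads from mitochondrial rRNA and tRNA were 56.7% of the total in WT, 88.7% in P2 and 86.6% in P3. Of footprint reads on the rest of the mitochondrial genome, the CDS part was 62.6%, 17.3% and 14.9%. Plastid and nuclear genome reads were 1.43% and 14.0% of the wild-type footprint library and at most 0.327% and 1.90% of the mutant ones. In RNA they were 5.32% and 4.51% of the wild-type library and at most 1.22% and 0.725% of the mutant ones, and their part in the results was not tested. Levels were deposited as TPM, a length-corrected read level that sums to 1000000 over the 24 genes in each library. A TPM is therefore a part of these genes' signal and says nothing of the amount in a mitochondrion or a leaf. The reads behind a single gene were not given, so the depth of each value is unknown.

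In RNA, cox1 took nearly the same part of the 24 genes in the 3 kinds of plant and cox3 a somewhat larger part in the mutants. The cox1 RNA level was 58890 TPM in WT, 59684 in P2 and 59836 in P3. These levels lay within 1.02-fold of each other. Because TPM sum to the same total in each library, a change in the number of mitochondria would not show in these levels. Nor would a change in the total RNA of the 24 genes per mitochondrion. The cox3 RNA level was 35391 TPM in WT, 47173 in P2 and 47035 in P3, which was 1.33-fold higher than wild type in both mutants. Neither gene passed the 1.5-fold threshold (0.58 on the log2 scale) used here to call a difference, whereas 66.7% of the 24 genes passed it in P2 and 66.7% in P3. Most of those were higher (58.3% of the genes in each), and the median gene stood at a log2 RNA ratio of 0.84 in P2 and 0.78 in P3. Relative to that median gene, the direction turned and both members were lower: cox1 at -0.82 in P2 and -0.76 in P3, and cox3 at -0.42 and -0.37. On that scale cox1 RNA passed the threshold in both phenotypes and cox3 RNA did not. The cox1 RNA direction also turned with every other scaling that used the number of CDS reads or left out atp9, the most abundant transcript. In the order of RNA levels cox1 ranked 5 in WT, 5 in P2 and 4 in P3, and cox3 ranked 10, 8 and 8. The neighbours of cox3 in that order were close. In P2 nad4L stood at 50401 TPM and cob at 46944, and without replicates no order among such neighbours can be given.

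**Figure D1:**
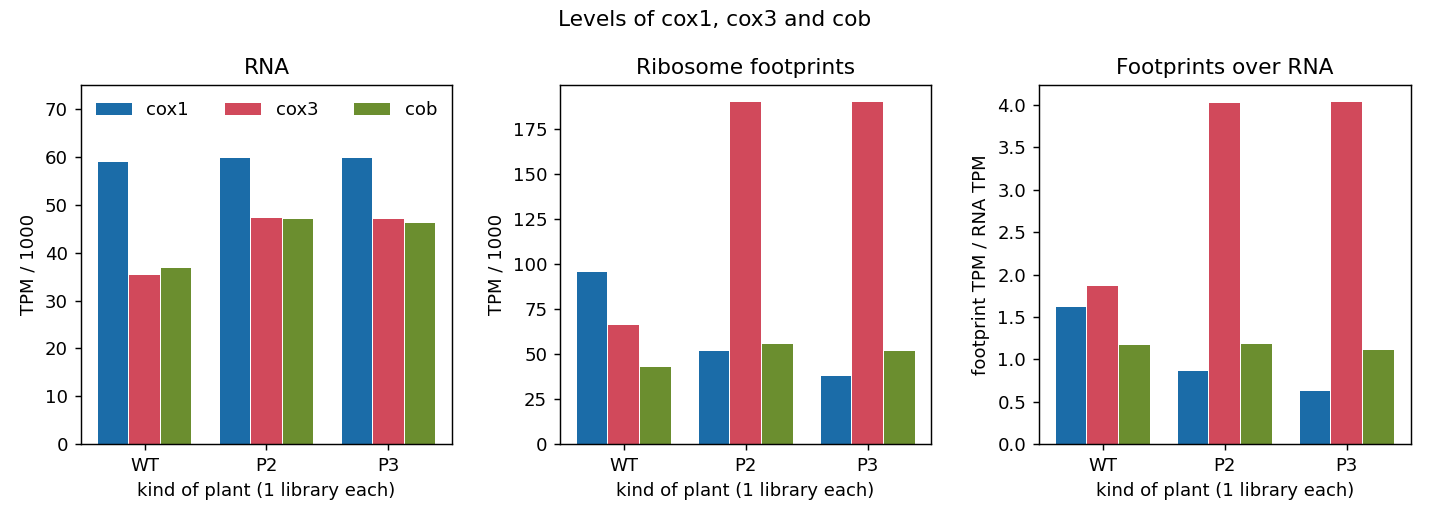
Levels of cox1, cox3 and cob in RNA (left, TPM divided by 1000), in ribosome footprints (middle, TPM divided by 1000) and as footprint TPM over RNA TPM (right) for wild type (WT), P2 and P3. Each bar is 1 library, or the ratio of a pair of libraries on the right. The cox3 footprint bar goes from 65924 TPM in WT to 189461 and 189713 while cox1 goes from 95339 to 51493 and 37562.

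In footprints the genes moved apart. The cox1 footprint level was 95339 TPM in WT, 51493 in P2 and 37562 in P3, and the cox3 footprint level was 65924, 189461 and 189713 TPM. Wild type was thus the highest for cox1 and the lowest for cox3. Footprints of cox1 were lower by 1.85-fold in P2 and by 2.54-fold in P3 (log2 ratios -0.89 and -1.34). Those of cox3 were 2.87-fold higher in P2 and 2.88-fold higher in P3 (1.52 in both). The threshold was passed by 58.3% of the 24 genes in the higher direction and by 29.2% in the lower direction in each phenotype, so a call by itself was common. Within that order cox1 had the sixth lowest ratio in P2 and the fourth lowest in P3, while cox3 lay near the middle, 12 from the highest in both.

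A scaling shifts the footprint ratios of all genes alike, and the larger shifts tried were all downward. Such shifts could turn cox3, which was higher in TPM, but could not turn cox1, which was already lower. Centred on the median gene, which stood at a log2 footprint ratio of 1.30 in P2 and 1.32 in P3, cox3 was at 0.22 and 0.21, no longer past the threshold. When TPM were multiplied by the share of filtered reads on CDS, which shifted every footprint ratio by -3.34 in P2 and -3.72 in P3, cox3 turned lower, to -1.82 and -2.20. Scaled instead by the CDS share of reads on the mitochondrial genome (tRNA and rRNA left out), it was -0.33 and -0.55. With each scaling tried cox1 footprints remained lower and past the threshold, but the downward shifts could only strengthen that call. A filter at 1000 TPM and leaving out rpl16 or cox3 moved cox1 up, in P2 to -0.87, -0.76 and -0.68. The cox1 value nearest to the threshold was -0.68 in P2, when cox3 itself was left out of the sum.

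In the order of footprint levels cox1 went from rank 3 of 24 in wild type, between atp1 (154323 TPM) and atp4 (83291), to rank 9 in P2 and rank 11 in P3. There its neighbours were rps4 (37677 TPM) and rpl5 (30425). The cox3 gene went from rank 6 in wild type, next to nad3 (66237 TPM), to rank 1 in both mutants. The next gene below it stood at 99971 TPM in P2 (atp9) and 138128 TPM in P3 (rpl16). The part of the summed footprint TPM held by cox1 and cox3 together was 16.1% in wild type, 24.1% for P2 and 22.7% for P3, against 9.43%, 10.7% and 10.7% of the summed RNA TPM. Of their joint footprint TPM, the cox3 part was 40.9% in WT, 78.6% in P2 and 83.5% in P3.

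A ratio of genes within a library does not move with any scaling of that library. The cox3 to cox1 ratio of RNA levels was 0.601 in WT, 0.790 in P2 and 0.786 in P3. The cox3 to cox1 ratio of footprint levels was 0.691, 3.68 and 5.05. Wild type thus had more cox1 than cox3 in both kinds of library, and both mutants had more cox1 RNA but more cox3 footprints. The ratio of footprints was 5.32-fold higher in P2 than in wild type and 7.30-fold higher in P3, whereas the ratio of RNA was 1.32-fold and 1.31-fold higher. P2 and P3 were set against the same wild-type library, so the agreement of their directions is not independent.

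**Figure D2:**
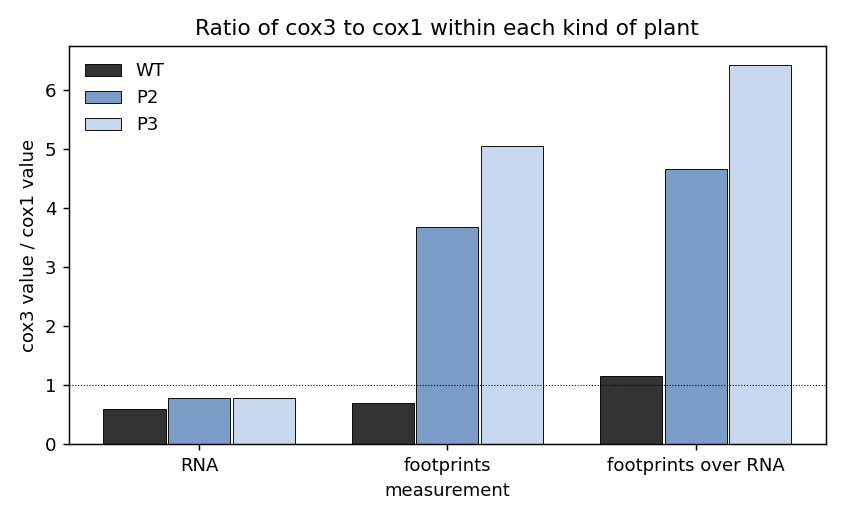
Ratio of the cox3 value to the cox1 value in RNA, in footprints and in footprints over RNA, with 1 bar each for wild type (WT), P2 and P3. The dotted line marks equal values. The RNA bars lie between 0.601 and 0.790, and the footprint bars are at 0.691, 3.68 and 5.05.

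The gene cob, which encodes cytochrome b of complex III, the complex before cytochrome c in the chain, served as a second point of reference. Its footprint level was 43080 TPM in WT, 55337 in P2 and 51607 in P3. The ratio of cox1 to cob footprints was 2.21, 0.931 and 0.728 in wild type, P2 and P3, and that of cox3 to cob footprints was 1.53, 3.42 and 3.68. Relative to cob cox1 was therefore lower and cox3 higher in the mutants. The log2 footprint ratio of cob, 0.36 in P2 and 0.26 in P3, was itself below that of the median gene (1.30 and 1.32). For RNA the ratio of cox1 to cob was 1.60, 1.27 and 1.29, and that of cox3 to cob was 0.961, 1.00 and 1.02. The RNA levels of cox3 and cob thus stood in almost the same ratio in the 3 kinds of plant while their footprints did not.

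Translation efficiency was the footprint TPM over the RNA TPM of the same gene. In TPM the RNA ratios over wild type were smaller than the footprint ratios, so the efficiencies kept the directions of the footprints. For cox3, with an RNA log2 ratio of 0.41 in both phenotypes, the efficiency ratio was smaller than the footprint ratio. The efficiency of cox1 was 1.62 in WT, 0.863 in P2 and 0.628 in P3, which was 1.88-fold and 2.58-fold lower (log2 ratios -0.91 and -1.37). That of cox3 was 1.86, 4.02 and 4.03, which was 2.16-fold and 2.17-fold higher (1.11 in both). The cox3 to cox1 ratio of efficiency was 1.15, 4.66 and 6.43. In wild type cox3 and cox1 ranked next to each other, 4 and 5 of 24. In the mutants cox3 ranked 1, ahead of atp6.2 in P2 (2.42) and rpl16 in P3 (2.79), and cox1 ranked 14 and 19. The higher direction was called for 37.5% of the genes in P2 and 45.8% in P3, and the lower direction for 25% and 29.2%. Centring on the median gene left cox3 past the threshold at 0.88 and 0.78, but scaling by the CDS share of filtered reads turned it lower, to -1.94 and -2.32. With the most abundant gene left out in each library type (atp9 for RNA and cox3 for footprints), the cox1 efficiency ratio in P2 was -0.48 and no longer past the threshold.

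**Figure D3:**
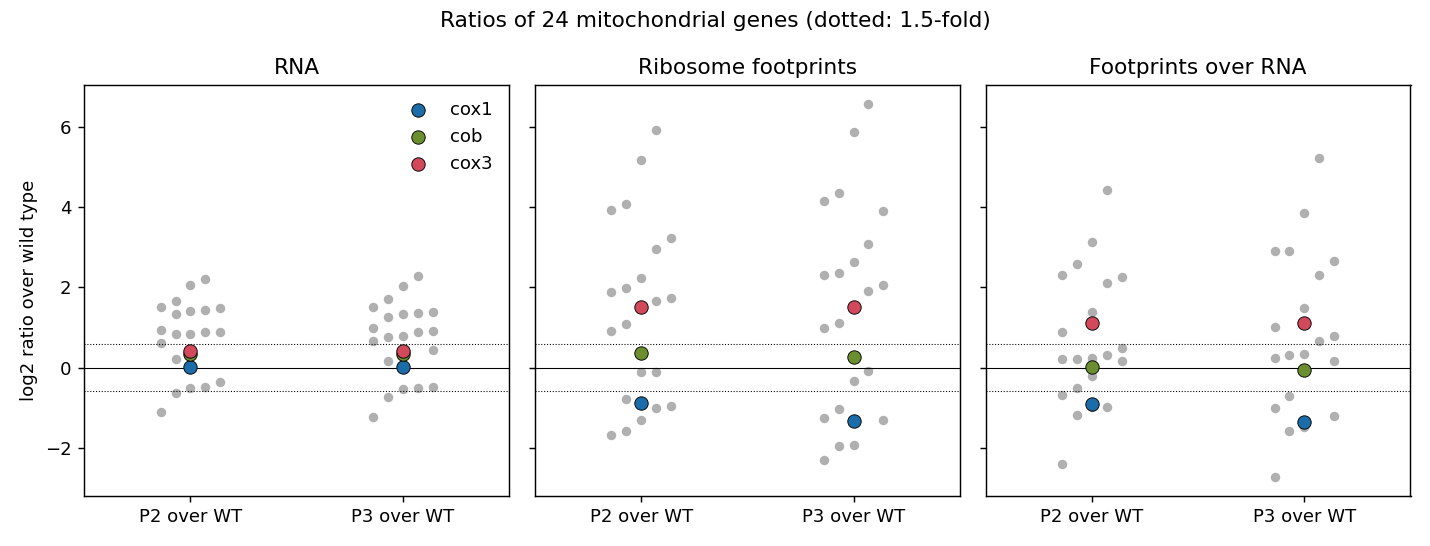
Log2 ratios over wild type of the 24 mitochondrial genes in RNA, footprints and footprints over RNA. Each grey point is a gene, cox1, cox3 and cob are coloured, and dotted lines mark 1.5-fold. In footprints cox3 is at 1.52 in both phenotypes and cox1 at -0.89 in P2 and -1.34 in P3.

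The other genes of oxidative phosphorylation with a level were 11 of complexes I, III and V. By the 1.5-fold threshold 2 of them were called higher in footprints and 6 lower in each phenotype, beside 58.3% and 29.2% of all 24 genes. Of the 11, those called higher were nad6 of complex I (0.92 and 0.99) and atp6.2 of the ATP synthase (1.74 and 1.91). Each went against the direction of most called genes of its complex. The median of the 11 was -0.79 in P2 and -1.04 in P3, beside 1.30 and 1.32 for all 24 genes, so cox1 lay near it and cox3 above it. By the same threshold 1 of the 11 was called higher in efficiency in each phenotype, and 5 in P2 and 6 in P3 were called lower, with medians of -0.51 and -0.72. Of all 24 genes 37.5% in P2 and 45.8% in P3 were called higher in efficiency, and 25% and 29.2% lower. Their medians were 0.23 and 0.33. For RNA 3 of the 11 were called higher and 2 lower in both phenotypes, with medians of 0.21 and 0.17. Of all 24 genes 14 were called higher in RNA and 2 lower in both phenotypes, with medians of 0.84 and 0.78.

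Likeness of pattern over the 6 libraries was measured as the root mean square difference of log2 TPM after each gene was centred on its own mean. The gene nearest to cox1 was atp1, for the alpha subunit of the ATP synthase, at 0.21, followed by atp6.1 (0.36) and atp4 (0.37). The ratio of cox1 to atp1 footprints was 0.618, 0.673 and 0.585 in wild type, P2 and P3. The ratio of their RNA levels was 0.425, 0.611 and 0.631, and that of their efficiencies was 1.45, 1.10 and 0.928. The likeness of cox1 and atp1 was thus closer in footprints than in RNA or efficiency. The genes nearest to cox3 were rps7 (0.36), for a protein of the small ribosomal subunit, atp6.2 (0.42) and nad6 (0.68). Footprints of rps7 were 2.12-fold and 2.15-fold higher in P2 and P3, and those of atp6.2 were 3.34-fold and 3.77-fold higher. Unlike cox3, rps7 had RNA called higher (1.84-fold in both) and an efficiency that was not called (1.15-fold and 1.17-fold higher). The efficiency of nad6, 1.25-fold higher in both, was not called either, whereas that of atp6.2 was 2.63-fold and 2.79-fold higher. Reads could be divided between atp6.2 and the other atp6 copy, atp6.1, by the authors' counting, which was not tested. These distances describe 6 libraries and use the same libraries as the ratios above.

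The comparison of P3 with P2 did not involve wild type. In RNA 0 of the 24 genes differed by 1.5-fold, and cox1 (log2 ratio of P3 over P2 0.0037) and cox3 (-0.0042) were almost equal. In footprints 29.2% of the genes passed the threshold. The cox3 ratio was 0.0019, and the cox1 ratio was -0.46, 1.37-fold lower in P3 and the third lowest of 24. Neither passed, although cox1 did so after scaling to the CDS part of filtered reads (-0.84) or of mitochondrial reads (-0.68). In efficiency 16.7% of the genes passed, and cox1, at -0.46, had the second lowest ratio. The cox3 to cox1 ratio of footprints was 1.37-fold higher in P3 than in P2.

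Footprints of translating ribosomes fall mostly in one reading frame of the message, called frame 0 here after the column of the data, and an even spread would put 33.3% in each frame. In wild type the members lay close together. Frame 0 held 60.0% of the footprints of cox1, 59.2% of those of cox3 and 60.2% of those of the cox2_1 row, while the cox2_2 row had the highest share of all 56 rows (73.6%). The median row stood at 57.0%. The number of footprints behind these shares was not given, so they carry no interval.

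In the mutants cox3 kept a share close to that of wild type and the others had lower ones. Frame 0 held 55.7% of the cox3 footprints in P2 and 57.2% in P3, which was 3.49 and 2.05 percentage points below wild type. The cox1 share was 43.0% in P2 and 43.6% in P3, or 17.0 and 16.4 points below. Frame 0 shares were lower in 54 of the 56 rows in P2 and in 55 in P3, and the median row lost 14.8 and 15.3 points. The loss of cox1 was thus close to that of the median row, a median taken over exon rows as well as whole genes. Among the 24 genes with a level alone, the cox1 share ranked 10 from the highest in WT, 18 in P2 and 16 in P3. The median of those genes was 59.2%, 47.0% and 45.0%, so cox1 went from above it to below it. Only 3 of the 56 rows in each phenotype had a smaller loss than cox3 or a gain. The cox3 share was the highest of the 56 rows in P2, with atp8 next at 55.2%, and the second highest in P3, after atp8 at 59.3%. The median row then stood at 41.0% and 41.9%.

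**Figure D4:**
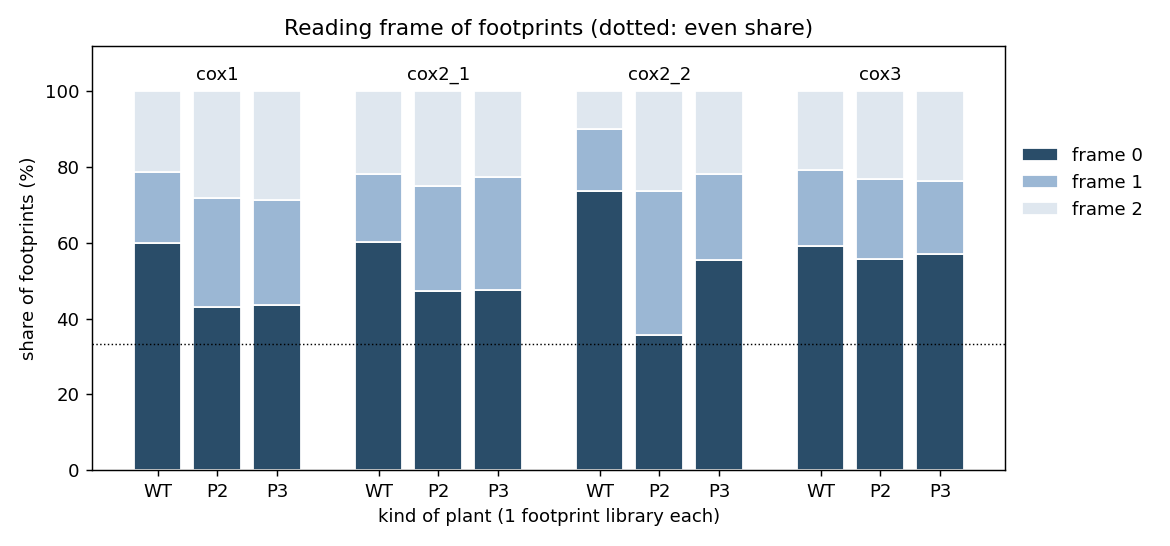
Share of footprints in frames 0, 1 and 2 (percent, stacked) for cox1, the cox2_1 and cox2_2 rows and cox3 in the footprint libraries of wild type (WT), P2 and P3. The dotted line is the even share of 33.3%. The dark frame 0 part of cox3 stays between 55.7% and 59.2%, while that of cox1 goes from 60.0% to 43.0% and 43.6%.

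The share that cox1 had less of in frame 0 was found in both other frames. The cox1 share of frame 1 was 18.8% in WT, 28.7% in P2 and 27.7% in P3, and frame 2 held 21.2%, 28.3% and 28.8%. For cox3 frame 1 held 19.9%, 21.2% and 19.2%, and frame 2 held 20.9%, 23.0% and 23.6%. In cox1 the excess of frame 0 over either other frame was therefore smaller in the mutants, and in cox3 the 3 frames kept nearly the same shares.

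For cox2 the exon rows differed from each other. The cox2_1 row had 60.2% in frame 0 in WT, 47.3% in P2 and 47.6% in P3, losses of 12.9 and 12.6 points that were close to those of the median row. The cox2_2 row had 73.6% in WT, 35.6% in P2 and 55.4% in P3. Its loss of 38.0 points in P2 was the second largest of the 56 rows, and frame 1, with 38.1%, was then its largest frame. From P2 to P3 it gained 19.8 points, more than any of the other 55 rows, where the median row changed by -0.72 points. The mean of the exon rows was 66.9% in WT, 41.5% in P2 and 51.5% in P3. This mean gives the rows equal weight, since the number of footprints in each is unknown.

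**Figure D5:**
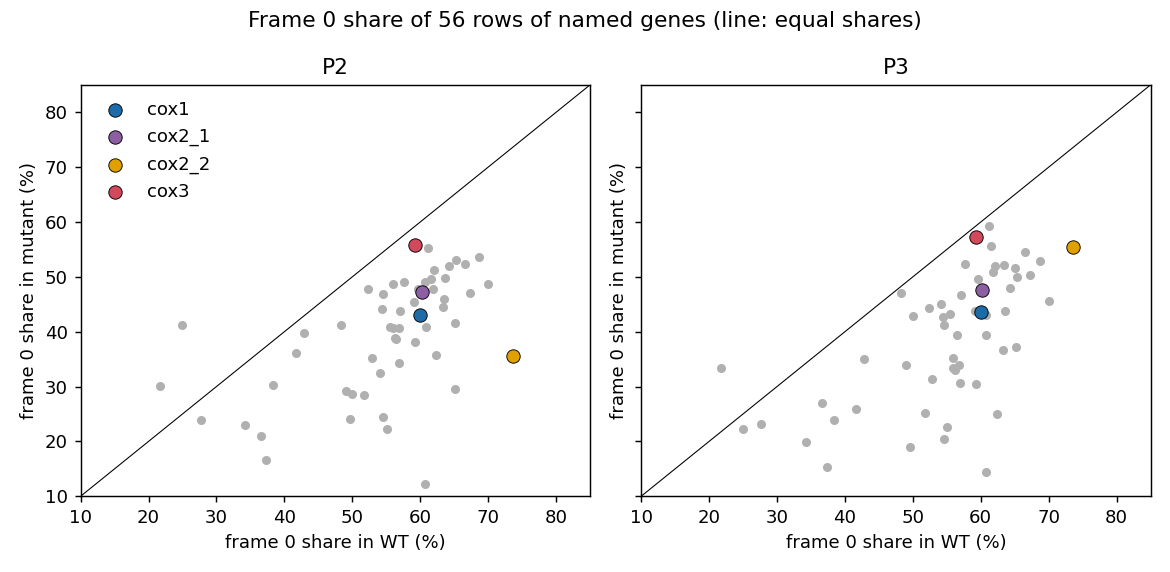
Frame 0 share in P2 (left) and P3 (right) against the share in wild type (WT), in percent, for 56 gene and exon rows, with cox1, cox2_1, cox2_2 and cox3 coloured. Points below the line had a lower share in the mutant. The cox3 point lies just under the line in both panels, and cox2_2 lies at 35.6% in P2 and 55.4% in P3.

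Level and frame were then joined by multiplying a gene's footprint TPM with its share in frame 0. In-frame footprints of cox1 were 57200 TPM in WT, 22148 in P2 and 16371 in P3, which was 2.58-fold and 3.49-fold lower. Its footprints in frames 1 and 2 together were 38140, 29345 and 21191 TPM, which was 1.30-fold and 1.80-fold lower. The difference in cox1 was thus larger in frame 0 than outside it, which restates its lower frame 0 share. In-frame footprints of cox3 were 39050, 105610 and 108480 TPM, which was 2.70-fold and 2.78-fold higher, and those in frames 1 and 2 were 26875, 83851 and 81234 TPM, which was 3.12-fold and 3.02-fold higher. In both mutants cox3 ranked 1 of 24 by in-frame footprints. In-frame footprints of cob, at 26654, 26425 and 26300 TPM, differed little. Counted this way the cox3 to cox1 ratio was 0.683 in WT, 4.77 in P2 and 6.63 in P3.

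In the TAIR10.1 gene table a pseudogene, sdh4, overlaps cox3, and no named gene overlaps cox1 or cox2. The sources used here do not give the authors' rule for reads in the overlap, and the part of sdh4 in the cox3 values was not tested.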

How the data were processed

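Footprint and RNA libraries were made from pooled leaf mitochondria with chloramphenicol at 100 µg/ml, nuclease digestion and rRNA depletion, per the labels' protocols. STAR and featureCounts were used, per the submitters' processing notes. Versions, settings, annotation and build are not stated in the sources used here. The authors deposited gene levels as TPM over 24 mitochondrial genes, codon frames as a fraction of footprints per gene or exon, and counts of reads per class of sequence. The way frames were assigned is not stated there either.

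Libraries were grouped by their titles in the labels. Log2 ratios of TPM were taken of each phenotype over wild type and of P3 over P2, with no pseudocount because every value was above 0, and called at 1.5-fold. Efficiency was footprint TPM over RNA TPM. The arithmetic was tested on simulated data. Python 3.11.15 and matplotlib 3.10.9 were used. Alternatives were median-of-ratios scaling, scaling by CDS share, leaving out abundant genes, a pseudocount of 100 TPM, a filter at 1000 TPM and in-frame footprints.

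The members, lists and comparisons were chosen with earlier results of these data known. Other genes were named by rule: cob, the 3 genes most like each member over the 6 libraries, oxidative phosphorylation genes called against the rest of their complex, neighbours of a member in the order of levels or frame shares, and genes that an alternative leaves out. Neighbours in RNA, efficiency and frame order, beyond footprint order, were added after their values were seen. Gene names matched the TAIR10.1 table, which was used for names and overlaps only. No sequence of these genes was used here.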

Additional observations from a re-analysis of the deposited data

How the results depend on the processing

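Each of the 15 alternative values of the cox3 to cox1 ratio kept its direction and its side of 1.5-fold. They came from a pseudocount or in-frame footprints only, since no scaling of a library moves this ratio. Of 150 alternative log2 ratios, 111 kept both. A filter at 1000 TPM, a pseudocount of 100 TPM, in-frame footprints and leaving out rpl16 changed no call and no direction. The pseudocount is small beside member levels of at least 35391 TPM and could hardly move them. The lowest RNA level was 1465 TPM and the lowest mutant footprint level 2815 TPM. The filter thus removed nothing in RNA or in P3 over P2. In RNA atp9 was the most abundant gene, so leaving it out by either rule gave the same values. Leaving out atp9 or rpl16 and scaling by the CDS share of mitochondrial reads were added after the data were seen.

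With median-of-ratios scaling cox1 RNA was -0.82 in P2 and -0.76 in P3, both then past the threshold, cox3 RNA was -0.42 and -0.37, and cox3 footprints were 0.22 and 0.21, past the threshold no more. For P3 over P2 cox3 RNA was 0.012, its footprints -0.044 and its efficiency -0.0098. With scaling by the CDS share of filtered reads cox1 RNA was -0.28 and -0.27, cox3 footprints were -1.82 and -2.20 and cox3 efficiency -1.94 and -2.32. For P3 over P2 cox1 footprints (-0.84) and efficiency (-0.84) then passed the threshold, and cox3 footprints and efficiency were both at -0.38. With the CDS share of mitochondrial reads cox1 RNA was -0.34 and -0.36, cox3 footprints -0.33 and -0.55 and cox3 efficiency -0.38 and -0.57. For P3 over P2 cox1 RNA was -0.024, cox1 footprints -0.68, cox1 efficiency -0.65, cox3 footprints -0.22 and cox3 efficiency -0.19. Leaving out the most abundant gene, atp9 for RNA and cox3 for footprints, put cox1 RNA at -0.21 and -0.16 and cox3 RNA for P3 over P2 at 0.038. The cox1 efficiency ratio was then -0.48 in P2, and cox3 had no footprint value. Leaving out atp9 alone gave the same RNA values, and for P3 over P2 -0.055 for cox3 footprints and -0.093 for cox3 efficiency. These shifts follow from the scalings, which move every gene of a comparison equally.

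Relative to the median row, the frame 0 differences of cox1 were -2.15 points in P2, -1.10 in P3 and 1.29 for P3 minus P2, and those of cox3 were 11.3, 13.3 and 2.16. The exon rows of cox2 ranged from -38.0 to -12.9 points in P2, from -18.2 to -12.6 in P3 and from 0.30 to 19.8 for P3 minus P2. Leaving out a replicate was not possible with 1 library per group. No paired analysis was possible because each group had 1 library. Without reads per gene or row, counting error of single values is unknown, and it bears most on the mutant footprint libraries, which held the fewest reads on CDS.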
